A study of Homo sapiens with 60 samples.

Results

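The genes described here encode components of basement membranes and of the pericellular matrix. They are 9 laminin chains, 4 collagen IV chains, 3 collagen VI chains, the linkers NID1, NID2 and HSPG2, fibronectin (FN1), 10 elastic fibre and microfibril genes, 5 matricellular proteins and 4 proteoglycans. A list of 40 genes was matched to Ensembl identifiers among the 60675 rows of the count table, and the 39 genes with a mean of at least 1 CPM (a gene's counts relative to the TMM-scaled total of its library) in any treatment group were kept. The gene left out was MFAP5, a microfibril glycoprotein whose highest group mean was 0.621 CPM, and the kept genes nearest to the limit were LAMA2, FBLN5 and ELN, with highest group means of 1.43, 1.71 and 2.75 CPM. All 39 kept genes passed the filter on low counts, so each of them was tested.

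RNA came from SW1783, an established human astrocytoma line grown in Leibovitz L-15 medium, after 24 h of treatment, in 20 groups of 3 libraries. One group received the PI3-kinase inhibitor wortmannin at 10 µM. The others received hot-water extracts of single medicinal plants at 20 (low), 100 (medium) and 500 (high) µg/mL, namely Liriopis seu Ophiopogonis Tuber, Schisandrae Fructus, Longan Arillus, Zizyphi Semen and Aucklandiae Radix, or Polygalae Radix at 10 (low), 50 (medium) and 250 (high) µg/mL. The last group was Vehicle, DMSO at 0.1% by the sample labels, whereas the text of the series gives 2%. By that text, an extract with an IC20 under the standard top dose was given at its IC20 and at dilutions of it, and Polygalae Radix is the extract here with a top dose below the others.

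The median total of expected counts was 25.71 M, and libraries ranged between 9.34 and 35.35 M. Separate cultures are not mentioned for the libraries within a group, so p-values measure the spread between these libraries, which may be technical. Library names place Vehicle, Wortmannin, Liriopis with Schisandrae, Longan with Zizyphi, and Polygalae with Aucklandiae in 5 different name sets, so a difference from Vehicle and a difference between sets cannot be told apart, while high and low dose of an extract share a set. Liriopis_high replicate 1 stood apart from the other libraries: the root mean square deviation of the 39 genes from their group means was 0.745 on the log2 scale in it, 0.372 and 0.376 in the other libraries of its group, which share its mean, and at most 0.147 in the remaining 57. It widened the spread in the common fit of all 60 libraries, so counts are also given without it where they change by more than 1.5 times. In Vehicle libraries the astrocyte markers GFAP, S100B, AQP4 and ALDH1L1 averaged 0.148, 0.0485, 0 and 0.048 CPM, whereas GJA1 and SOX9 averaged 203 and 81.1 CPM. The mesenchymal markers COL1A1 and THY1 averaged 3770 and 501 CPM. Above 1 CPM were 3 of 10 astrocyte markers and 10 of 10 mesenchymal ones. Most marker sums given below rest on 1 or 2 genes. In Vehicle, COL1A1 and COL1A2, both collagen genes, averaged 3770 and 1800 CPM of a mesenchymal sum of 6250 to 6510 CPM. KRT18 averaged 123 CPM of an epithelial sum of 135 to 152, and KDR 34.1 CPM of an endothelial sum of 33.7 to 39.9. PTPRC averaged 10.1 CPM of a leukocyte sum of 13.6 to 14.3, and GJA1 203 CPM of an astrocyte sum of 306 to 325.

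Basement membranes are thin sheets in which a laminin network and a collagen IV network are bridged by nidogens and by the heparan sulfate proteoglycan perlecan (HSPG2). Laminins are trimers of one alpha, one beta and one gamma chain, and collagen IV assembles from alpha chains encoded by gene pairs that lie head to head. Fibronectin, fibrillins, fibulins and collagen VI form the surrounding fibrillar and microfibrillar mesh, and matricellular proteins such as tenascin C (TNC), thrombospondins and SPARC modulate adhesion to it. In brain, such matrix lies mainly around vessels and at the pial surface, and glioma cells are known to deposit fibronectin, tenascin C and versican (VCAN).

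The 39 genes together held 1.88% of all counts in Vehicle libraries. Their summed level was 18238, 19171 and 19111 CPM in the Vehicle libraries, of which FN1 alone supplied 24.4%. Levels were also divided by the length of all annotated exons of a gene, 17315 bases for FN1 and 5343 for COL6A1. This length can exceed that of the transcript expressed, so the order between genes depends on the annotation. Per kilobase of exon, the order in Vehicle was headed by SPARC, a collagen-binding glycoprotein, at 491 CPM per kb (SD 23.1, n = 3). COL6A1 followed at 296 CPM per kb, FN1 at 266, THBS1 (thrombospondin 1) at 214 and COL6A2 at 188 CPM per kb. The most abundant laminin chains were LAMC1 at 89.5 and LAMB1 at 80.3 CPM per kb. Their levels exceeded every alpha chain, of which LAMA4 was highest at 25.7 CPM per kb, LAMA5 stood at 13.2, and LAMA1, LAMA3 and LAMA2 lay at 1.41, 0.949 and 0.0985 CPM per kb.

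**Figure D1:**
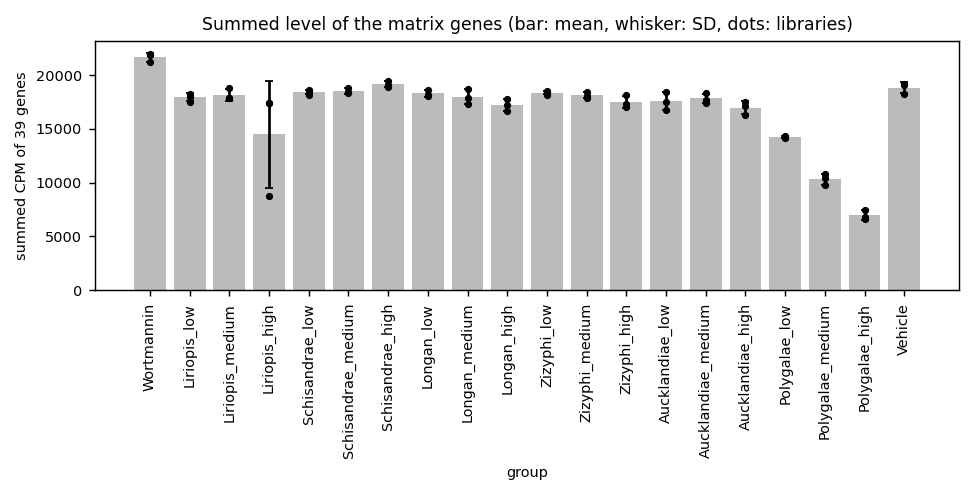
Summed level of the 39 matrix genes in CPM (vertical axis) in each treatment group, with Vehicle at the right. Bars are means, whiskers are SD and dots are the 3 libraries of a group. The 3 Polygalae groups step down to a mean of 6956 CPM at the high dose, against 18840 CPM in Vehicle, and the spread of Liriopis_high comes from a single library at 8743 CPM.

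Polygalae Radix lowered most of these genes, and the levels moved further with each dose. The summed level averaged 18840 CPM (SD 522) in Vehicle, 14248 (SD 126) at the low, 10310 (SD 494) at the medium and 6956 (SD 467) at the high dose (n = 3 each). The libraries of the 4 groups did not overlap. Means fell stepwise through Vehicle, low, medium and high dose for 32 of the 39 genes, the others being DCN, FBLN5, LAMA1, LAMA2, LAMA3, LAMB3 and THBS2. This order was not counted over all genes. It also held for 3 (Liriopis), 8 (Schisandrae), 9 (Zizyphi), 10 (Aucklandiae) and 15 (Longan) of the 39 genes. With Longan none of the 39 was called at the high dose, so the order alone is not a call.

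At the high against the low dose of Polygalae, whose libraries share a name set, 33 of 39 genes fell and 1 rose in edgeR's quasi-likelihood test with Benjamini-Hochberg adjustment over all 17792 genes tested at a threshold of 0.05. Over all genes, 18.3% were called lower and 17.9% higher. The median log2 fold change was -0.98 for the 39 genes and 0.01 for all genes. Of the 39, 17 fell by 2-fold or more, a count that was not made over all genes. Leaving out each library in turn gave between 34 and 36 called genes. In bulk RNA a lower level can mean fewer cells that make a transcript or less transcript per cell, and these cannot be told apart. In the same libraries the 10 mesenchymal markers summed to between 1570 and 1700 CPM at the high dose, against 4440 to 4770 at the low dose, with 8 of 10 called lower and none at 0. Pericyte and smooth muscle markers summed to 312 to 321 CPM at the high dose, against 523 to 574 at the low dose. Epithelial markers summed to 45.2 to 47.3 CPM at the high dose, against 116 to 120 at the low dose, with group means of EPCAM between 0 and 0.0621 CPM. Leukocyte markers summed to 3.32 to 4.09 CPM at the high dose, against 8.94 to 10.1 at the low dose, and endothelial markers to 27.8 to 32.4 CPM at the high dose, against 34.6 to 40.9 at the low dose. Astrocyte markers summed to 283 to 305 CPM at the high dose, against 279 to 299 at the low dose, so these ranges overlapped. The RNA came from an established line and most of these sums rest on few genes, so a sum is not a share of a cell type. The mitochondrial share of counts was 12.4% to 13.4% at the high dose, against 7.87% to 11% at the low dose. The part of these shifts in the result was not tested.

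TNC, the hexameric glycoprotein tenascin C, changed most. Its libraries held 89.8, 74.4 and 64.8 CPM at the high dose of Polygalae, against 499, 485 and 458 CPM at the low dose. The groups were far apart, and the log2 fold change was -2.65 (SE 0.20, edgeR adjusted p = 5e-15). The medium dose lay between them, at 245, 236 and 201 CPM, and TNC alone of the 39 genes fell by 2-fold or more between the medium and low doses (log2 -1.08). Per kilobase TNC held place 18 of the 39 genes at the high dose and place 7 in Vehicle. VCAN, the large hyaluronan-binding proteoglycan versican, behaved alike, with means of 107 CPM (SD 18.5) at the high dose and 378 CPM (SD 16.3) at the low dose (log2 -1.81, SE 0.17).

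The gene of TNC lies on the minus strand of chromosome 9 (GRCh38, 115019578 to 115118257) and that of VCAN on the plus strand of chromosome 5 (83471465 to 83582303). The 250 bases before their RefSeq start sites (GRCh38.p14, chr9:115118158-115118407 on the minus strand and chr5:83471494-83471743 on the plus strand) are shown because these were the genes with the lowest log2 fold changes in this contrast. Capitals mark GGGCGG, a GC box, and CAGACA, a SMAD-binding element, on either strand.
TNC: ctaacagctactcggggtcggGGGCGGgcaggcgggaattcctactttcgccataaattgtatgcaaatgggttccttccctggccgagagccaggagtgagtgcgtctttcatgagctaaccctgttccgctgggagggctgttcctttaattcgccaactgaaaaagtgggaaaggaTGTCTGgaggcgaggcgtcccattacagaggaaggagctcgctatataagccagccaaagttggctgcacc
VCAN: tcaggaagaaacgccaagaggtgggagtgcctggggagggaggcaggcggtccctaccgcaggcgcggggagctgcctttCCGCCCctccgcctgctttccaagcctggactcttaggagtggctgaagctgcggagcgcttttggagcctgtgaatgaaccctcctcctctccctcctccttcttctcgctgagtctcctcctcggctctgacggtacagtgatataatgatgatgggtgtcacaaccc
Both windows hold 1 GC box and the TNC window 1 CAGACA on the opposite strand. RefSeq promoter windows of 300 bases (250 before to 50 after a start site) were found for 32 of the 39 genes, 38 windows in all. CAGACA on either strand was in 15.8% of them and in 16.9% of all 35116 windows. GGGCGG was in 71.1% of the 38 windows and 45.0% of all, CCAAT in 31.6% and 34.6%, TATAAA in 10.5% and 11.5%, and TGANTCA, the AP-1 element, in 10.5% and 7.7%. No motif contains another, and a match describes letters, not binding. COL6A1, DCN, EFEMP1, ELN, EMILIN1, LAMA1 and LUM had no window in the table.

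All 4 collagen IV genes fell at the high against the low dose of Polygalae. COL4A5 held 39.9, 34.7 and 33.1 CPM at the high dose, against 81.7, 87.6 and 77.3 CPM at the low dose. The libraries did not overlap, and the log2 fold change was -1.19 (SE 0.07, edgeR adjusted p = 2.7e-18). COL4A6 had a log2 fold change of -1.38 (SE 0.11), COL4A2 of -0.94 (SE 0.08) and COL4A1 of -0.65 (SE 0.10). The values of the X-linked pair COL4A5 and COL4A6 were thus below those of the pair on chromosome 13, a difference between genes that was not itself tested. COL4A6 was already lower at the low dose than in Vehicle, at 51.9, 54.6 and 50.4 CPM, against 87.2, 86.5 and 85.8 CPM in Vehicle libraries. Across the 20 group means, the log2 levels of COL4A5 and COL4A6 correlated with r = 0.99, and with r = 0.79 over the 17 groups without Polygalae.

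Collagen IV genes are divergent pairs. The RefSeq start sites of COL4A1 (minus strand) and COL4A2 (plus strand) lie 127 bases apart, and the nearest ones of COL4A5 (plus) and COL4A6 (minus) lie 380 bases apart. COL4A6 has another RefSeq window (chrX:108438373-108438672), whose start lies further from COL4A5. The stretch between the COL4A1 and COL4A2 starts (GRCh38.p14, chr13:110307158-110307283, plus strand) is shown because it is upstream of both genes. Capitals mark CCAAT and GGGCGG.
COL4A1-COL4A2: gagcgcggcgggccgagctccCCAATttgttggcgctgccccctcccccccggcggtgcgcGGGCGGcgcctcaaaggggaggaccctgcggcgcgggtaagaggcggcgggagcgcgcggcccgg
It holds 1 CCAAT and 1 GGGCGG. In GENCODE 29 the models of the pair (COL4A1 at 110148963 to 110307233, COL4A2 at 110305812 to 110513209 of chromosome 13) overlap at their 5′ ends on opposite strands. The strand setting of the counting is not given in the sources used here, so reads in the overlap may have gone to either gene.

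Collagen VI, a beaded filament that anchors basement membranes, fell in all 3 chains, and unevenly. COL6A3 held 44.6, 37.9 and 34.9 CPM at the high dose of Polygalae, against 131, 142 and 125 CPM at the low dose (log2 -1.76, SE 0.14, edgeR adjusted p = 1.3e-14). COL6A1 and COL6A2, the neighbouring chains on chromosome 21, had log2 fold changes of -0.68 and -0.63 (SE 0.07 each). The 95% interval of COL6A3 ran between -2.04 and -1.48, below those of COL6A1 (-0.83 to -0.53) and COL6A2 (-0.76 to -0.49), although the difference between chains was not itself tested.

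The laminins divided. LAMA4, LAMA5, LAMB1, LAMB2 and LAMC1 fell, with log2 fold changes between -1.03 and -0.71, whereas LAMA2, LAMA3 and LAMB3 did not pass the test and LAMA1 rose. LAMA1, an alpha chain of early embryonic basement membranes, held 46.4, 43.8 and 41.1 CPM at the high dose of Polygalae, against 27.4, 29 and 27.1 CPM at the low dose. The groups did not overlap, and the log2 fold change was 0.65 (SE 0.15, edgeR adjusted p = 0.00038). The medium dose, at 44.0, 46.3 and 38.2 CPM, lay with the high one, and LAMA1 was the only one of the 39 genes called higher there against the low dose. LAMA3, an alpha chain of epithelial laminins, held 19.2, 19.1 and 20.3 CPM at the high dose, against 15.5, 18.7 and 15.7 CPM at the low dose (log2 0.23, SE 0.13, adjusted p = 0.18). Without Liriopis_high replicate 1 in the fit LAMA3 was called higher too, at 0.23. Against Vehicle, whose libraries held 14.6, 13.4 and 13.8 CPM, LAMA3 rose by 0.49 (log2) at the high dose. These alpha chains were named after their values were seen.

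The 250 bases before the RefSeq start site used for LAMA3 (GRCh38.p14, chr18:23872770-23873019, plus strand) are shown for 2 reasons. LAMA3 was called higher at the high dose of Polygalae against Vehicle, where most of the 39 genes fell. The window holds the AP-1 element TGANTCA in 2 copies, and 7.7% of all windows hold it at least once. A window of MFAP2 also holds 2 copies and that of POSTN holds 1, and both genes fell at the high against the low dose. A LAMB3 window holds 1 copy, and LAMB3 did not pass that test. No direction of change is read from the motif. Capitals mark the AP-1 element, CAGACA and the GC box. The start site used is that of a shorter RefSeq transcript, inside the GENCODE gene model of LAMA3 (chromosome 18, 23689443 to 23956222, plus strand).
LAMA3: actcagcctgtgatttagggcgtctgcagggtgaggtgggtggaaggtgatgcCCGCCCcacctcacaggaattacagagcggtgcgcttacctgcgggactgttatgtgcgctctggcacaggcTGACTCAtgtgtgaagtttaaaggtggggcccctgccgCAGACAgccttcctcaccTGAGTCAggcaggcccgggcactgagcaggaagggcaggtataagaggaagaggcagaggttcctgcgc
The CAGACA match lies between the TGANTCA matches.

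The bridging proteins fell as well: NID1, NID2 and HSPG2 had log2 fold changes of -0.52, -0.99 and -1.23 at the high against the low dose of Polygalae. FN1, the fibronectin gene, averaged 1080 CPM (SD 109) at the high dose and 2930 CPM (SD 68.8) at the low dose (log2 -1.45, SE 0.18). Its share of the summed level was 15.5% at the high dose and 24.4% in Vehicle, and per kilobase it held place 5 at the high dose and place 3 in Vehicle.

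Among elastic fibre genes, 9 of 10 fell. EFEMP1 (fibulin 3) had the smallest adjusted p of the 39 genes. It held 80.8, 83.3 and 75.5 CPM at the high dose of Polygalae, against 193, 173 and 180 CPM at the low dose (log2 -1.19, SE 0.05, edgeR adjusted p = 1.1e-24). FBLN1 (fibulin 1) changed by less but as evenly, with 53.1, 52.0 and 51.4 CPM at the high dose, against 77.7, 77.6 and 79.7 CPM at the low dose (log2 -0.59, SE 0.05, adjusted p = 1.6e-14). The fibrillin genes FBN1 and FBN2, whose products build microfibrils, had log2 fold changes of -1.43 and -1.46, and ELN, the elastin gene, of -1.39 at a mean of only 0.722 CPM at the high dose and 1.94 CPM at the low dose. FBLN5, which helps to place elastin on microfibrils, did not pass the test, at 1.28 CPM (SD 0.373) at the high dose and 1.63 CPM (SD 0.161) at the low dose.

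Of the matricellular genes, SPARC held 1010, 1040 and 1000 CPM at the high dose of Polygalae, against 2070, 1940 and 2080 CPM at the low dose (log2 -0.99, SE 0.07, edgeR adjusted p = 3.8e-17). THBS1 and POSTN (periostin) had log2 fold changes of -1.06 and -1.02. THBS2, the thrombospondin 2 gene, did not pass the test (log2 -0.27, SE 0.11, edgeR adjusted p = 0.055, 95% interval -0.50 to -0.05). Its libraries held 191, 157 and 166 CPM at the high dose, against 202, 211 and 209 CPM at the low dose, and did not overlap. Without Liriopis_high replicate 1 in the fit THBS2 was called lower too. The small leucine-rich proteoglycans biglycan (BGN), decorin (DCN) and lumican (LUM) all fell, by -0.92, -1.21 and -0.90 on the log2 scale.

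**Figure D2:**
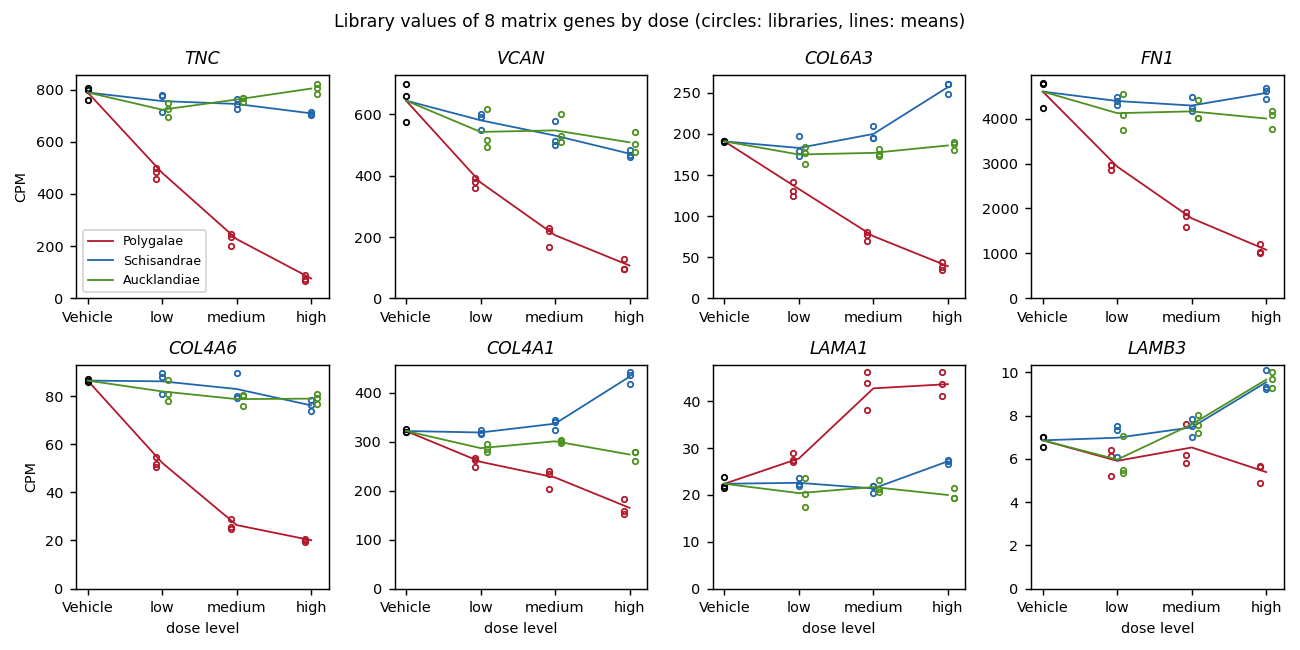
CPM (vertical axes, starting at 0) of 8 matrix genes by dose level of 3 extracts, with Vehicle at the left. Circles are libraries and lines join group means. TNC, VCAN, COL6A3, FN1 and COL4A6 step down along the Polygalae doses, LAMA1 is higher at its medium and high doses, COL4A1 and COL6A3 are higher at the high dose of Schisandrae, and LAMB3 at the high doses of Schisandrae and Aucklandiae.

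The medium dose of Polygalae lowered 24 genes and raised 1 relative to the low dose, against 5.7% of all genes called lower and 5.23% called higher. EFEMP1, for instance, held 123, 128 and 126 CPM at the medium dose, against 193, 173 and 180 CPM at the low dose (log2 -0.54, edgeR adjusted p = 5.8e-12). DCN held 5.94, 6.61 and 6.08 CPM at the medium dose, against 10.3, 9.15 and 11.2 CPM at the low dose (log2 -0.72). In both genes every medium-dose library lay below every low-dose library.

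At the low dose, 10 µg/mL, Polygalae already lowered 13 of the 39 genes relative to Vehicle and raised none, while 3.46% of all genes were called lower and 3.01% higher. VCAN held 380, 393 and 360 CPM at the low dose, against 575, 660 and 700 CPM in Vehicle (log2 -0.77, SE 0.17, edgeR adjusted p = 0.0018). COL4A5 held 81.7, 87.6 and 77.3 CPM at the low dose, against 127, 127 and 133 CPM in Vehicle (log2 -0.65, adjusted p = 3.8e-09). No library of one group reached the other in either gene. The count rests on single libraries: it was 7 and 8 without Vehicle replicates 2 and 3, 5 without Polygalae_low replicate 2 or 3, and 27 without Liriopis_high replicate 1, where 13.9% of all genes were called. The calls of COL4A5, COL4A6, EFEMP1 and VCAN were lost under none of these.

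The high dose of Polygalae against Vehicle lowered 34 genes and raised 2, LAMA1 and LAMA3, where 22.9% of all genes were called lower and 23.1% higher. The median log2 fold change was -1.19 for the 39 genes and 0.02 for all genes. Of the 39, 22 fell by 2-fold or more, which was likewise not counted over all genes. Across its libraries COL4A6 held 20.7, 19.5 and 20.3 CPM, against 87.2, 86.5 and 85.8 CPM in Vehicle (log2 -2.10, SE 0.11, edgeR adjusted p = 1.9e-20). Only LAMB3, called lower, lost its call when 1 library was left out, Polygalae_high replicate 3 (log2 -0.28).

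Aucklandiae Radix changed fewer of the genes: 10 fell and 2 rose at its high against its low dose, against 5.3% and 5.32% of all genes. The median was -0.05 for the 39 genes and 0 for all genes. Elastic fibre genes supplied 6 of the 10 that fell, namely ELN, FBN2, EMILIN1, EFEMP1, EFEMP2 and FBLN1, with log2 fold changes between -0.83 and -0.23. The others were THBS2, POSTN, DCN and LUM. No collagen IV, collagen VI, nidogen, HSPG2 or FN1 gene passed the test, their log2 fold changes lying between -0.13 and 0.09. Of the 10 that fell, 9 (all but THBS2) were also among the 33 called lower with Polygalae, 27.3% of those. Since 33 of all 39 genes had that call, nothing is read from this overlap. The mesenchymal markers summed to 3740 to 3820 CPM at the high dose of Aucklandiae, against 5560 to 5660 at the low dose, with 5 of 10 called lower. Sums were also lower at the high dose for pericyte and smooth muscle markers (474 to 491 CPM, against 563 to 604 at the low dose), epithelial markers (105 to 108 CPM, against 136 to 148) and leukocyte markers (7.89 to 8.16 CPM, against 12.5 to 14.3). They were higher for astrocyte markers (323 to 331 CPM at the high dose, against 286 to 312 at the low dose) and endothelial markers (42.5 to 46.2 CPM, against 33.2 to 39.4). The part of these shifts in the result was not tested.

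Thrombospondin 2 (THBS2) held 108, 114 and 120 CPM at the high dose of Aucklandiae, against 173, 176 and 200 CPM at the low dose (log2 -0.68, SE 0.11, edgeR adjusted p = 2.3e-05). Lumican (LUM), a small proteoglycan of collagen fibrils, held 13.4, 12.9 and 14.7 CPM at the high dose, against 20.9, 18.7 and 18.1 CPM at the low dose (log2 -0.50, SE 0.08, adjusted p = 1.1e-05). In both genes the groups were apart. Decorin (DCN) held 7.06, 7.04 and 6.53 CPM at the high dose, against 10.8, 9.60 and 9.42 CPM at the low dose (log2 -0.54). EMILIN1, a glycoprotein at the elastin-microfibril interface, held 21.7, 22.5 and 21.9 CPM at the high dose, against 31.8, 30.5 and 26.4 CPM at the low dose (log2 -0.43). EFEMP1 fell by less here, with 175, 167 and 183 CPM at the high dose, against 217, 206 and 214 CPM at the low dose (log2 -0.28, SE 0.05, adjusted p = 2.2e-05). The high-dose libraries of these genes were likewise all below the low-dose ones.

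The genes that rose were LAMB3 and LAMA3, chains of the laminin trimer through which epithelial cells adhere. LAMB3 held 10.0, 9.72 and 9.29 CPM at the high dose of Aucklandiae, against 7.06, 5.47 and 5.37 CPM at the low dose (log2 0.68, SE 0.12, edgeR adjusted p = 2.8e-05). LAMA3 averaged 19.5 CPM (SD 1.06) at the high dose and 13.6 CPM (SD 1.81) at the low dose (log2 0.53, adjusted p = 0.0065). The LAMA3 call was lost without Aucklandiae_low replicate 1 (log2 0.42), and the FBN2 and POSTN calls were lost without 1 and 4 single libraries of the contrast. Against Vehicle, the high dose of Aucklandiae lowered 13 genes and raised 2, where 6.69% of all genes were called lower and 6.54% higher. THBS2 again held 108, 114 and 120 CPM at the high dose, against 189, 197 and 194 CPM in Vehicle (log2 -0.76, adjusted p = 2.3e-06).

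Schisandrae Fructus at its high dose changed many genes of the cell, and the matrix genes took part in both directions: 6 rose and 8 fell relative to its low dose, against 25% and 24.8% of all genes. The share of the 39 genes called, 35.9%, was below the 49.7% of all genes. Without Liriopis_high replicate 1 the counts were 10 up and 14 down, against 57.6% of all genes called. In that fit the share of the 39 genes was not below that of all genes. Collagen IV chains split: COL4A1 held 436, 443 and 419 CPM at the high dose, against 316, 324 and 318 CPM at the low dose (log2 0.44, SE 0.10, edgeR adjusted p = 0.00017), whereas COL4A5 held 99.6, 94.7 and 90.6 CPM at the high dose, against 126, 128 and 125 CPM at the low dose (log2 -0.41, SE 0.07, adjusted p = 3e-06). Of the 3 collagen VI chains, 2 rose and none fell. COL6A3 held 261, 249 and 261 CPM at the high dose, against 173, 179 and 197 CPM at the low dose (log2 0.49, adjusted p = 0.0015). The libraries of the doses did not overlap in any of these genes.

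Among the laminins, LAMA5 held 125, 128 and 125 CPM at the high dose of Schisandrae, against 169, 181 and 207 CPM at the low dose (log2 -0.56, SE 0.15, edgeR adjusted p = 0.0011), and LAMB3 held 9.24, 10.1 and 9.34 CPM at the high dose, against 6.11, 7.32 and 7.52 CPM at the low dose (log2 0.45, adjusted p = 0.001). LAMA2 rose too, at 1.39 CPM at the high dose and 0.728 CPM at the low dose. The other calls were COL6A2 and SPARC, which rose by 0.21 each, and FBN2, MFAP2, THBS2, DCN, LUM and FBLN1, with log2 fold changes between -0.47 and -0.15. Of these, COL6A2, SPARC, FBN2, MFAP2, LUM and FBLN1 lost the call when 1 library of the contrast was left out. Of the 6 genes that rose with Schisandrae, 4 (COL4A1, COL6A2, COL6A3 and SPARC) were among the 33 that fell with Polygalae (12.1% of those), and of its 8 that fell, 7 were (21.2%), where 33 of all 39 genes had that call. The mesenchymal markers summed to 5480 to 5820 CPM at the high dose of Schisandrae, against 6340 to 6510 at the low dose, with 7 of 10 called lower and 2 higher. Sums were also lower at the high dose for astrocyte markers (230 to 250 CPM, against 300 to 316 at the low dose), pericyte and smooth muscle markers (443 to 484 CPM, against 574 to 600), epithelial markers (69.5 to 72.1 CPM, against 141 to 155) and leukocyte markers (4.06 to 4.28 CPM, against 13.2 to 14.6), and higher for endothelial markers (38.8 to 41.3 CPM, against 36.2 to 38.6). Their part in the result was not tested. Against Vehicle the high dose of Schisandrae raised 5 genes and lowered 9, where 25.3% and 25.6% of all genes were called. There COL4A1 again held 436, 443 and 419 CPM at the high dose, against 321, 326 and 320 CPM in Vehicle (log2 0.42, adjusted p = 0.00025), and the counts without Liriopis_high replicate 1 were 11 and 16, against 58.6% of all genes.

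The contrast between extracts was tested directly as the difference of 2 dose differences. The dose difference of Polygalae was below that of Schisandrae in 33 genes, against 20.7% of all genes called lower, and above it in none. Among the 33 are LAMA2 and LAMB3, which did not pass the test with Polygalae and rose with Schisandrae. COL6A3 had a difference of -2.25 (log2, SE 0.19), SPARC of -1.21 (SE 0.09) and EFEMP1 of -1.08 (SE 0.07). Against Aucklandiae, 29 genes differed downwards and 1 upwards, LAMA1, with 12.4% and 10.4% of all genes called. TNC had a difference of -2.81 (SE 0.27), COL4A5 of -1.07 (SE 0.10) and EFEMP1 of -0.91 (SE 0.07). Schisandrae and Aucklandiae differed in 5 genes, 3 upwards and 2 downwards, against 15.8% and 16.8% of all genes. This count was 17 without Liriopis_high replicate 1, against 42.7% of all genes, and 3 without Aucklandiae_low replicate 1 or Aucklandiae_high replicate 2. The doses were 250 and 10 µg/mL for Polygalae but 500 and 20 µg/mL for the other extracts, so the top and bottom concentrations differ.

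**Figure D3:**
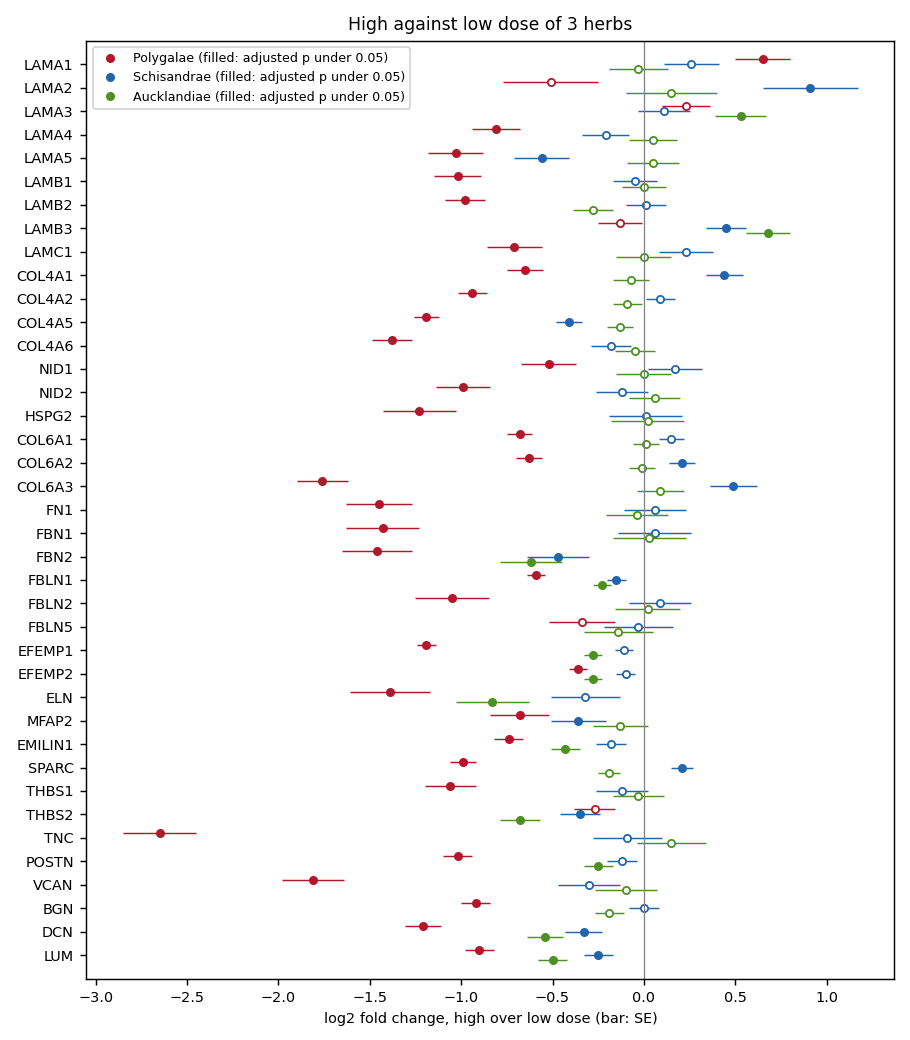
Log2 fold change of each of the 39 genes (rows, ordered by role) between the high and low doses of 3 extracts. Points are edgeR estimates, bars are SE and filled points passed the adjusted threshold of 0.05. Polygalae lies left of 0 for 37 genes, Schisandrae has calls on both sides, and the Aucklandiae calls below 0 are ELN, FBN2 and other elastic fibre, matricellular and small proteoglycan genes.

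Wortmannin raised 9 of the 39 genes relative to Vehicle and lowered none, against 5.45% and 6.52% of all genes. FBLN1 held 95.2, 95.5 and 101 CPM with wortmannin, against 81.2, 84.3 and 78.7 CPM in Vehicle (log2 0.26, SE 0.05, edgeR adjusted p = 7.1e-05). DCN held 13, 12.5 and 13 CPM with wortmannin, against 10.2, 10.1 and 8.42 CPM in Vehicle (log2 0.42, adjusted p = 0.001). EFEMP1 held 249, 264 and 260 CPM with wortmannin, against 227, 233 and 212 CPM in Vehicle (log2 0.20, adjusted p = 0.0022). In each of these genes all wortmannin libraries were above all Vehicle libraries.

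The further wortmannin calls were EFEMP2, FBLN2, COL4A1, COL4A2, COL6A2 and EMILIN1, with log2 fold changes between 0.20 and 0.57. FN1 did not pass the test although its libraries held 6430, 6330 and 6080 CPM with wortmannin, against 4240, 4780 and 4790 CPM in Vehicle (log2 0.45, SE 0.17, adjusted p = 0.084). FN1 is given because it supplied 29% of the summed level with wortmannin and 24.4% in Vehicle. The count was 5 without Vehicle replicate 2 or Wortmannin replicate 1, 4 without Vehicle replicate 3 or Wortmannin replicate 2, and 22 without Liriopis_high replicate 1 (20 higher, FN1 among them, and 2 lower, NID2 and TNC), where 22.7% of all genes were called. Only the calls of FBLN1, DCN and EFEMP1 were kept whichever library was left out.

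The high dose of Liriopis was called lower than Vehicle for 25 of the 39 genes and higher for none, against 15.2% and 18.7% of all genes, but this rests on 1 library. FN1 held 1200, 4050 and 3900 CPM in replicates 1, 2 and 3 of Liriopis_high, against 4240, 4780 and 4790 CPM in Vehicle (log2 -0.59, edgeR adjusted p = 0.011). NID2 held 61.8, 175 and 170 CPM in these replicates, against 188, 203 and 208 CPM in Vehicle (log2 -0.56, adjusted p = 0.0058). Only replicate 1 was far below. Without it 0 genes were called, and the median log2 fold change was -0.09, against -0.29 over all libraries. The count was 12 and 11 without Vehicle replicates 2 and 3.

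Against the low dose of Liriopis, 10 genes were called lower and 1 higher, with 4.27% and 11.8% of all genes. Without replicate 1 of the high dose none were called, and without Liriopis_low replicate 1, 2 or 3 the count was 1, 0 and 1, while without replicate 2 or 3 of the high dose it was 25. In replicate 1, 32 of the 39 genes were below both other libraries of the group, with a median ratio to their mean of 0.505. HSPG2 was lowest, at 99.4 CPM, against 440 and 424 CPM in the others. MFAP2, a microfibril glycoprotein, went the other way with 64.8 CPM in replicate 1, against 29.2 and 27.6 CPM, and its call against the low dose turned to a log2 fold change of -0.05 without that library.

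**Figure D4:**
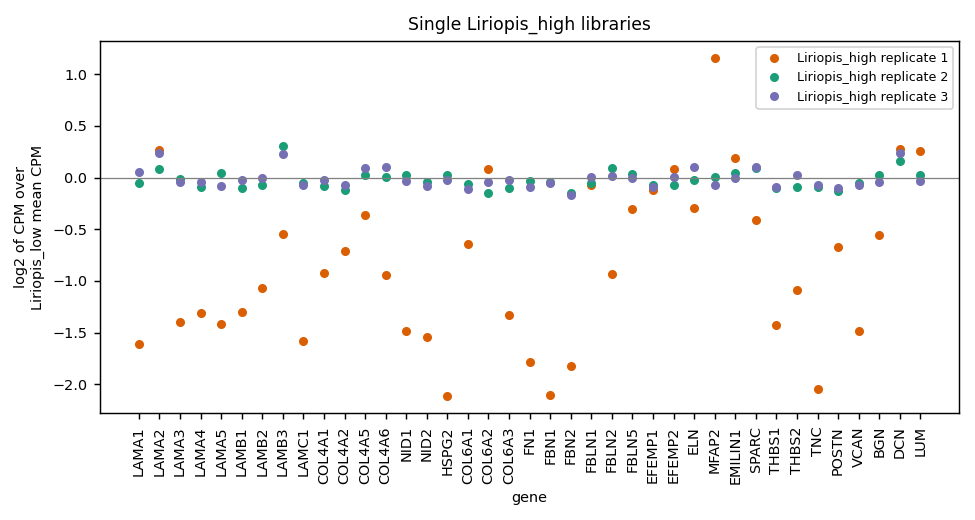
Log2 ratio of each Liriopis_high library to the mean of the Liriopis_low libraries (vertical axis) for the 39 genes (horizontal axis, ordered by role). Colours are the replicates. Replicates 2 and 3 stay close to 0, and replicate 1 lies below them for 32 genes and far above for MFAP2.

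Longan and Zizyphi gave few calls among these genes. At the high dose of Longan no gene was called against Vehicle (0.843% of all genes were) or against its low dose (0.247%), with 4 and 3 genes at an unadjusted p under 0.05 and 0 by DESeq2. Without Liriopis_high replicate 1 the counts were 6 and 2, against 7.02% and 1.82% of all genes. At the high dose of Zizyphi none was called against Vehicle (0.607% of all genes), with 1 gene at an unadjusted p under 0.05, 1 by DESeq2 and 1 without Liriopis_high replicate 1. Against its low dose LAMB3 alone rose (0.292% of all genes were called higher and 0.382% lower): it held 9.21, 8.87 and 9.55 CPM at the high dose, against 6.80, 6.98 and 6.15 CPM at the low dose (log2 0.47, SE 0.11, edgeR adjusted p = 0.025). The doses did not overlap, but the call was lost whichever of these 6 libraries was left out, and without Liriopis_high replicate 1 there were 3 calls. For Zizyphi the shares of all genes called without that library are not given here.

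LAMB3, the beta chain of this epithelial laminin, thus had group means of 9.67, 9.55 and 9.21 CPM at the high doses of Aucklandiae, Schisandrae and Zizyphi, and between 5.39 and 7.89 CPM in the other 17 groups. The SDs of these high values were 0.362, 0.457 and 0.343 (n = 3 each), and the differences between them were not tested.

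At the low doses of Liriopis, Schisandrae, Longan, Zizyphi and Aucklandiae no gene of the 39 was called against Vehicle, and between 0% and 0.00562% of all genes were. At most 1 of the 39 had an unadjusted p under 0.05, and DESeq2 called none. At the medium against the low dose of these 5 extracts none was called either, with 0%, 0.332%, 0%, 0.0112% and 0.0169% of all genes called for Liriopis, Schisandrae, Longan, Zizyphi and Aucklandiae. DESeq2 called none, and 0 to 4 genes had an unadjusted p under 0.05.

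**Figure D5:**
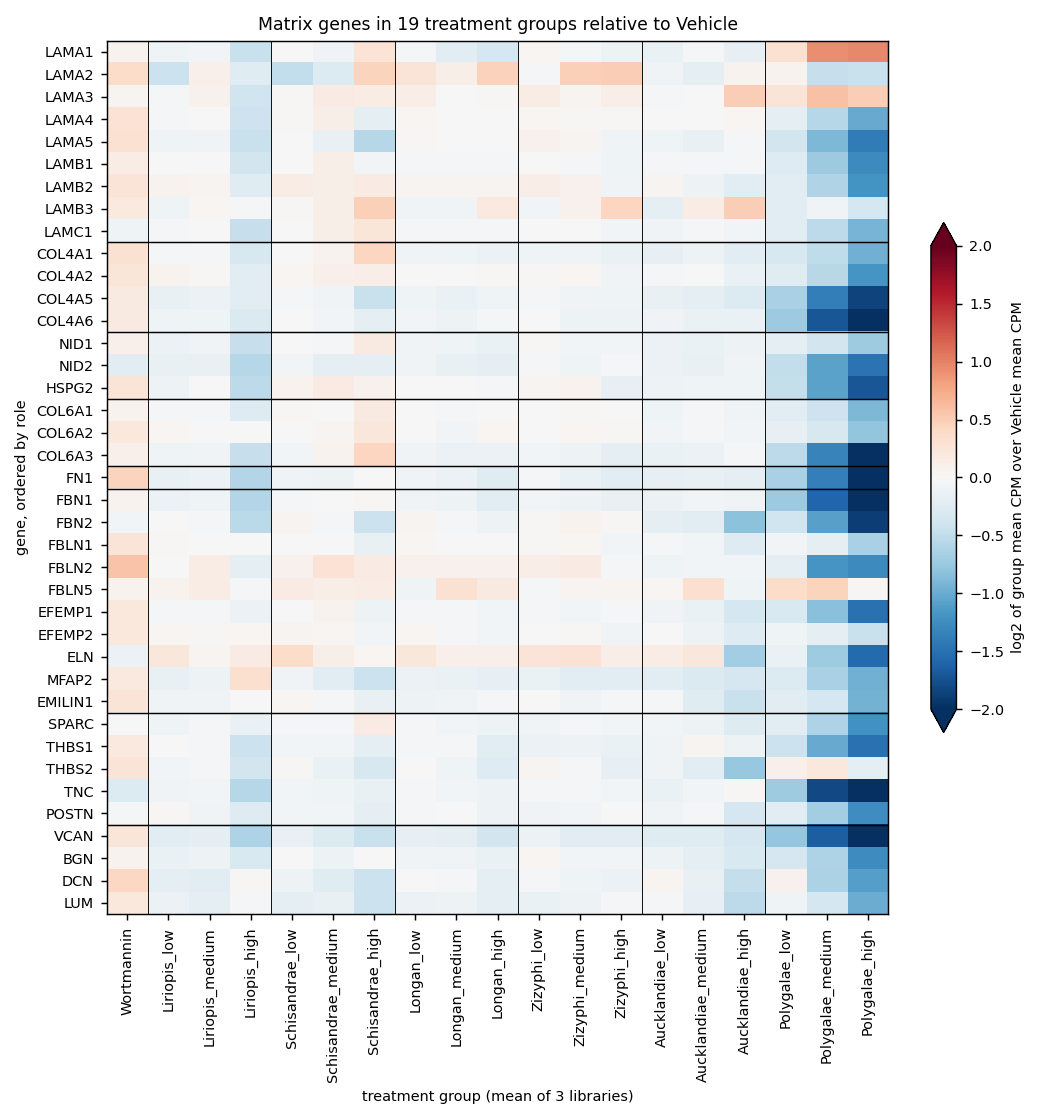
Log2 ratio of the group mean CPM to the Vehicle mean CPM (colour) for the 39 genes (rows, by role) in the 19 treated groups (columns, each herb from low to high dose). The Polygalae columns darken with dose for most genes, with LAMA1 and LAMA3 on the other side, and the Liriopis_high column carries the single low library.

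Over the 20 group means most of the 39 genes moved together, with a median r of 0.82 over their 741 pairs on the log2 scale, of which 237 exceeded 0.9. Correlations among other genes were not computed. The groups share Polygalae and Liriopis_high extremes: over the 17 groups without Polygalae the median was 0.45 and 15 pairs exceeded 0.9. These 17 groups still include Liriopis_high with its replicate 1. LAMA1 and LAMA3 had median r values of -0.66 and -0.46 with the other genes over 20 groups, and 0.56 and 0.30 without Polygalae. FBLN5 and THBS2 had -0.11 and 0.08 over 20 groups.

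Genes of the same structures outside the list were counted from lists drawn up with earlier results of these data known. Their counts stand beside 18.3% of all genes called lower and 17.9% called higher at the high against the low dose of Polygalae. With the high against the low dose of Polygalae, 11 of 15 other basement membrane genes tested fell and none rose (median log2 -0.94), among them AGRN, the proteoglycan agrin, at 79.1 CPM at the high dose and 152 CPM at the low dose, and COL18A1, the endostatin precursor, at 40.4 CPM at the high dose and 80.8 CPM at the low dose. Of 14 other elastic fibre and microfibril genes, 7 fell and 1 rose (median -0.47), with LTBP1, which tethers latent TGF-beta to fibrillin, at 43.3 CPM at the high dose and 120 CPM at the low dose. Of 10 other proteoglycan and matricellular genes 6 fell and 1 rose (median -0.93): TGFBI stood at 2080 CPM at the high dose and 4130 CPM at the low dose, while SPP1 (osteopontin) rose, at 15.6 CPM at the high dose and 4.23 CPM at the low dose (log2 1.89).

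Of 12 genes for cell surface receptors of these ligands, 8 fell and none rose between the Polygalae doses (median -0.51), against 18.3% and 17.9% of all genes. ITGA3, a laminin-binding integrin chain, averaged 740 CPM at the high dose and 1390 CPM at the low dose (log2 -0.91), and its partner ITGB1 averaged 1000 CPM at the high dose and 1480 CPM at the low dose (log2 -0.56). Of 16 genes of the TGF-beta pathway, a known inducer of matrix genes, 5 rose and 3 fell with a median of 0.13, against 17.9% and 18.3% of all genes. The receptor gene TGFBR1 averaged 124 CPM at the high dose and 80.3 CPM at the low dose (log2 0.63).

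Genes for export of matrix proteins from the endoplasmic reticulum divided by extract. With Polygalae 13 of 20 fell and 1 rose between high and low dose (median -0.36; 18.3% and 17.9% of all genes), P4HB, a subunit of collagen prolyl hydroxylase, standing at 805 CPM at the high dose and 1290 CPM at the low dose (log2 -0.68). With Schisandrae 19 of 20 rose and 1 fell (median 0.50; 25% and 24.8% of all genes), SEC23A, a coat protein of export vesicles, standing at 421 CPM at the high dose and 230 CPM at the low dose (log2 0.87), and KDELR3, a retrieval receptor, at 167 CPM at the high dose and 74.3 CPM at the low dose (log2 1.17). With Aucklandiae 1 of the 20 rose and none fell (median 0.05; 5.32% and 5.3% of all genes). With Aucklandiae the integrin chain ITGA2 rose, at 571 CPM at the high dose and 219 CPM at the low dose (log2 1.39). MFAP4, a microfibril protein, fell, at 68 CPM at the high dose and 88.9 CPM at the low dose (log2 -0.38). Both are single genes from lists other than that of export, and the counts of their lists with Aucklandiae are not given here.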

How the data were processed

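mRNA libraries of SW1783 cells were made with a directional kit and read as 100 bp pairs, per the labels' protocols. Per the submitters' processing notes, FastQC 0.11.9, Trim Galore 0.6.5, STAR 2.7.3a, RSEM 1.3.3 and GRCh38 were used. No annotation release or strand setting is given in the sources used here. The authors deposited RSEM expected counts for 60675 Ensembl identifiers in 60 libraries, of which 11.02% were not whole numbers. They were rounded here. Libraries with little RNA were left out before deposit, per the text of the series. Symbols came from a table of gene names for 56558 identifiers, and exon lengths and coordinates from GENCODE 29.

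All 60 libraries were fitted together, without a block, in edgeR 4.0.16 (R 4.3.3) with TMM scaling, filterByExpr at a minimum count of 10 (17792 genes kept) and the quasi-likelihood test. The dispersion common to all genes was 0.00761 (biological coefficient of variation 8.72%), with 40 residual degrees of freedom. The Benjamini-Hochberg threshold was 0.05 within each of 28 comparisons. SE is the absolute log2 fold change over the square root of F. CPM values use TMM-scaled library sizes, with a mean of at least 1 CPM in any group for the 39 genes described. The members and lists were chosen with earlier results of these data known. For each comparison, library values are given for at most 6 called genes with the smallest adjusted p, provided that the higher group averaged 5 CPM or more, and up to 4 genes per further list are named. FN1, LAMA1 and LAMA3, among others, were given in addition after their values were seen. Alternatives were RLE scaling, no filter, DESeq2 1.42.0, robust empirical Bayes, a replicate block, only the compared groups in the fit, and each library left out. The scripts were tested on simulated counts. No pair of libraries in a group agreed within sampling noise, the lowest chi-square per degree of freedom being 2.02. Promoter letters and start sites are from RefSeq on GRCh38.p14.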

Additional observations from a re-analysis of the deposited data

Results flagged for a closer look

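The dose differences of 3 extracts were set against each other in the same model, and the following differences passed the adjusted threshold of edgeR's quasi-likelihood test. Between Polygalae and Schisandrae 33 genes of the 39 differed, all downwards, against 20.7% of all genes called lower and 20.3% called higher. EFEMP1 differed by -1.08 on the log2 scale (SE 0.07, adjusted p = 5e-18), SPARC by -1.21 (SE 0.09, adjusted p = 4.7e-15) and COL6A3 by -2.25 (SE 0.19, adjusted p = 1.2e-13). SPARC and COL6A3 fell with Polygalae and rose with Schisandrae.

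Between Polygalae and Aucklandiae 30 genes differed, 29 downwards and 1 upwards, against 12.4% and 10.4% of all genes. EFEMP1, which fell with both, differed by -0.91 (SE 0.07, adjusted p = 5.4e-15), COL4A5 by -1.07 (SE 0.10, adjusted p = 1.1e-11) and TNC by -2.81 (SE 0.27, adjusted p = 2.8e-11). Between Schisandrae and Aucklandiae 5 genes differed, 3 upwards and 2 downwards, against 15.8% and 16.8% of all genes. With 12.8% of the 39 called, calls were rarer among them than among all genes in this fit. Without Liriopis_high replicate 1 the count was 17, and calls were then not rarer among the 39 than among all genes. SPARC differed by 0.40 (SE 0.09, adjusted p = 0.00051), COL4A1 by 0.51 (SE 0.14, adjusted p = 0.0031) and LAMA5 by -0.61 (SE 0.20, adjusted p = 0.018). The LAMA5 difference lost its call without Schisandrae_low replicate 3, where it was -0.52. Polygalae doses were lower than those of the other extracts, and Schisandrae libraries belong to another name set.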

How the results depend on the processing

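Counts of called genes stayed within 1.5 times of the reported ones in all 28 comparisons under RLE scaling, robust empirical Bayes and the replicate block. The share of all genes called also differs between fits and is not set beside the counts in this section. These counts therefore show only how far the calls depend on the fit. Without a filter on low counts, Wortmannin against Vehicle gave 5 genes and the high against low dose of Zizyphi 0. With DESeq2 the high dose of Zizyphi against Vehicle gave 1. With only the compared groups in the fit, which leaves Liriopis_high replicate 1 out of the spread of the others, the counts were 23 for Wortmannin, 26 for Schisandrae, 4 for Longan, 1 for Zizyphi and 0 for Liriopis at the high dose against Vehicle, 28 for the low dose of Polygalae against Vehicle, 27 for Schisandrae, 2 for Zizyphi and 0 for Liriopis at high against low dose, and 14 for the difference between Schisandrae and Aucklandiae.

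With each library left out in turn, the counts against Vehicle ran between 4 and 22 for Wortmannin, 0 and 28 for Liriopis_high, 10 and 27 for Schisandrae_high, 0 and 6 for Longan_high, 0 and 1 for Zizyphi_high, and 5 and 27 for Polygalae_low. At high against low dose they ran between 0 and 25 for Liriopis, 11 and 24 for Schisandrae, 0 and 2 for Longan, and 0 and 3 for Zizyphi, and between 3 and 17 for the difference between Schisandrae and Aucklandiae. The 1 direction that turned was MFAP2 at the high against the low dose of Liriopis, at -0.05 without Liriopis_high replicate 1 and 0.68 without replicate 3. Replicate numbers did not pair libraries: deviations of same-numbered libraries correlated at a mean of 0.003 (-0.27 to 0.22), against -0.001 for other numbers, and a replicate block ended 0 of the gene calls. The least deep library, Liriopis_low replicate 3, had 9.34 M counts, which limits genes near 1 CPM such as LAMA2.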
